A study of Mus musculus with 12 samples.

Results

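The regions described are the H3K9me3 peaks of Zfatf/f thymocytes that lay away from acetylated chromatin. A peak belonged to this class when it overlapped no peak of the other 6 lists of the series and its summit was more than 50 kb from every floxed H3K9ac/K27ac summit on its chromosome. The members were therefore chosen by measured peak and summit positions, and these are given as a description. The class held 1720 of the 2388 H3K9me3 peaks (72.0%, exact Clopper-Pearson 95% interval 70.2% to 73.8%), out of 21883 peaks in all 7 lists. These are called far peaks here. Of the other H3K9me3 peaks, 335 overlapped no list but had a summit within 50 kb of acetylation (near peaks), and 333 overlapped a peak of another list (overlapping peaks).

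All libraries were from thymocytes, which are maturing T lineage cells, taken from mice aged 4 to 5 weeks. Of the 12 libraries, 6 were ChIP of ZFAT or of histone marks and 6 were controls, either input or IgG. The H3K9me3 library and the H3K9ac/K27ac library that set the distance came from Zfatf/f mice, whose Zfat gene is flanked by recombination sites and is intact without Cre. The other lists were ZFAT peaks of the same line, ZFAT and H3K9ac/K27ac peaks of Zfatf/f-LckCre mice, in which Cre is driven by the T lineage promoter of Lck, and ZFAT peaks of B6 (C57BL/6) mice called against IgG or against input. Each ChIP was 1 library without a replicate, and H3K9me3 was analysed here only in Zfatf/f thymocytes, so no difference between conditions can be given for it. Thymocytes were profiled in bulk, where a mark in few cells and a weak mark in many cannot be told apart.

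Trimethylation of histone H3 at lysine 9 is laid down by SUV39H1, SUV39H2 and SETDB1 and is bound by HP1 proteins. In mouse cells it is known for silencing pericentric satellite repeats, transposable elements and some clustered gene families, often over broad domains. Acetylation of H3 at lysines 9 and 27 marks active promoters and enhancers, and a lysine 9 residue that is acetylated cannot carry the methyl mark. Positions are in mm9. Gene positions of that build were not used here, so the regions are given without gene names, and the labelled cell type was not checked against its marker genes.

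Most of the genome, like most of the H3K9me3 list, lay far from acetylation. The 20 chromosomes with H3K9me3 peaks were taken over the span between the first and the last peak of any list. Of this span, 1957 Mb (76.1%) was more than 50 kb from a floxed acetylation summit and 614 Mb (23.9%) was within 50 kb. Far peaks numbered 0.879 per Mb of the first territory (exact Poisson 95% interval 0.838 to 0.921), and near peaks 0.545 per Mb of the second (0.489 to 0.607). Part of that gap comes from the rule against overlap, which took out 190 of 1910 H3K9me3 peaks (9.95%) in the far territory and 143 of 478 (29.9%) within 50 kb. With all H3K9me3 peaks counted, the densities were 0.976 per Mb (0.933 to 1.02) in the far territory and 0.778 per Mb (0.710 to 0.851) within 50 kb. The densest band of all was then the one within 1 kb of an acetylation summit, at 4.73 per Mb (112 peaks, 3.89 to 5.69). The densities of far and near peaks are therefore a description of the classes and not of H3K9me3 as a whole. Sequence that reads cannot be placed on is counted as territory, and its part in these densities was not tested.

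Density also varied with distance inside the far territory, where the threshold on distance no longer selects but the rule against overlap still does. It was 0.687 peaks per Mb at 50 to 100 kb from acetylation (189 peaks, interval 0.592 to 0.792) and 0.858 at 100 to 200 kb (279 peaks, 0.760 to 0.965). The highest band was 200 to 500 kb, with 1.06 peaks per Mb (542 peaks, 0.975 to 1.16). Beyond that it was 0.889 per Mb at 500 to 1000 kb (356 peaks, 0.799 to 0.986) and 0.793 beyond 1000 kb (354 peaks, 0.712 to 0.880). The intervals of the bands nearest to acetylation and farthest from it thus both lay below that of the middle one. These intervals take peaks as independent, while far peaks were grouped. Grouping makes the intervals too narrow, by an amount that was not measured. The count of far peaks per window of 5 Mb had a variance of 6.94 against a mean of 3.19. These windows were not scaled to far territory, and the part of unequal room in that variance was not tested. With overlapping peaks counted as well, the densities were 0.817 per Mb at 50 to 100 kb (0.714 to 0.931), 1.17 at 200 to 500 kb (1.081 to 1.271) and 0.878 beyond 1000 kb (0.793 to 0.969), in the same order. Floxed ZFAT peaks had another course over the same bands, with 0.730 per Mb at 50 to 100 kb, 0.382 at 200 to 500 kb and 0.199 beyond 1000 kb.

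**Figure D1:**
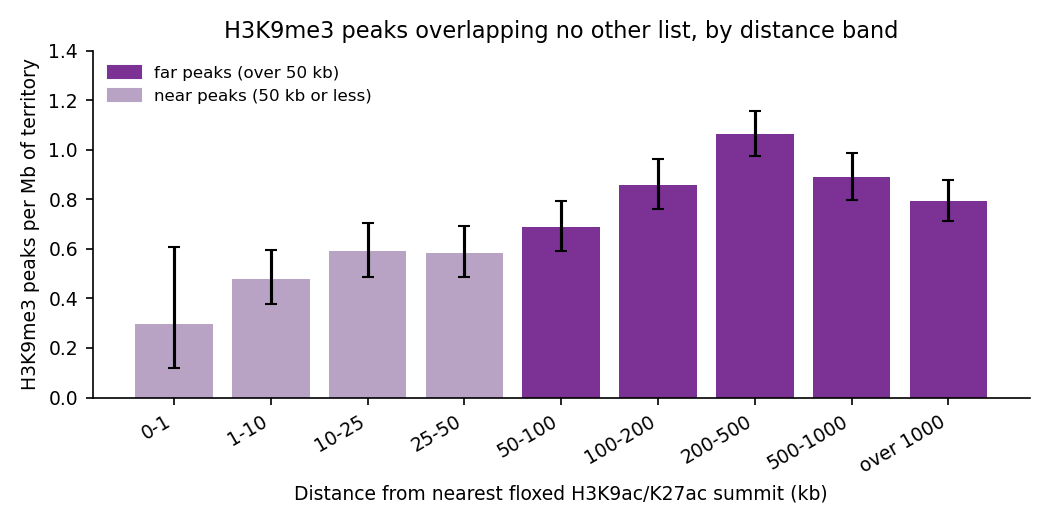
Number of H3K9me3 peaks that overlap no other list per Mb of chromosome span, in bands of distance from the nearest floxed H3K9ac/K27ac summit; bars are densities of 1 library and error bars exact Poisson 95% intervals (counting error only). Dark bars are the far peaks, which were densest, at 1.06 per Mb, in the band of 200 to 500 kb; light bars are the near peaks.

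The distance from a far peak to the nearest floxed acetylation summit had a median of 389 kb and quartiles of 188 and 854 kb. Of the 1720, 1531 (89.0%) were more than 100 kb away and 354 (20.6%) more than 1 Mb. The 3 peaks just inside the threshold lay 50063, 50627 and 50717 bp away, on chromosomes 10, 1 and 5, with folds of 5.93, 7.57 and 6.22. The 3 just outside lay 49996, 49843 and 49639 bp away, on chromosomes 8, 1 and 7, with folds of 4.95, 6.37 and 4.04. The 5 far peaks most remote from acetylation were all on chromosome X, between 6.92 and 8.81 Mb from a summit, inside a stretch of 21.2 Mb without one (chrX:105011366-126217178). The most remote, chrX:117403978-117404150, rested on 8 fragments (exact Poisson 95% interval 3.45 to 15.8) and had a fold of 5.73, with a B6 ZFAT summit called against input 2.57 kb away. The other 4 had folds between 4.67 and 7.94 and pileups between 6 and 16 fragments.

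The label of the class was set against the Lck-Cre acetylation list. The distance threshold did not use this list, but the rule against overlap had already removed the peaks lying on it, so the values are a description and no independent check. Of the far peaks, 34 (1.98%, interval 1.37% to 2.75%) lay within 50 kb of an Lck-Cre H3K9ac/K27ac summit, with a median distance of 849 kb over the class. Among near peaks it was 69 of 335 (20.6%, 16.4% to 25.3%). Both acetylation lists also measure the same marks in related mice. The ZFAT lists entered the rule in the same way, through overlap. A floxed ZFAT summit lay within 50 kb of 108 far peaks (6.28%, 5.18% to 7.53%) and of 56 near peaks (16.7%, 12.9% to 21.2%). For B6 ZFAT summits called against input these numbers were 138 far peaks (8.02%) and 88 near peaks (26.3%). ZFAT peaks are themselves more frequent near acetylation, as the bands above show.

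Far peaks were narrow. Their lengths ran from 151 to 748 bp, with a median of 173 bp (order-statistic 95% interval 171 to 174) and quartiles of 159 and 212 bp. Near peaks had a median of 165 bp (162 to 167) and overlapping peaks 173 bp (170 to 176). Since the authors' caller used a fragment length of 150 bp, most far peaks were scarcely longer than 1 fragment, or about the DNA of 1 nucleosome. The shortest peak was 151 bp in every class, and the caller's part in this was not tested. Such lengths were not particular to far peaks. The median was 171 bp in the whole H3K9me3 list and between 168 and 172 bp in the ZFAT lists. It was 290 bp in the floxed and 192 bp in the Lck-Cre acetylation list. All 1720 together covered 352 kb. Peaks of 160 bp or less made up 27.4% of far peaks (471), 40% of near peaks (134) and 26.4% of overlapping peaks (88).

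The distribution of length had a steep part and a flat part. There were 435 far peaks of up to 159 bp and 334 of 160 to 169 bp, falling to 37 at 200 to 209 bp. From 210 to 329 bp every 10 bp class held between 22 and 29 far peaks, 302 in all. The next classes held 14, 26 and 12 far peaks, and none from 360 bp on held more than 11. Of the far peaks, 95 (5.52%, 4.49% to 6.71%) were longer than 350 bp, against 8 near peaks (2.39%, 1.04% to 4.65%) and 18 overlapping peaks (5.41%, 3.23% to 8.41%). Far peaks were thus longer than near peaks by their median and held fewer short peaks, with intervals that did not meet, while the intervals of the share over 350 bp met. Peaks within 1 library are not replicates, and no test was made. The median pileup, the number of ChIP fragments stacked at the summit, was 15 in far peaks and 10 in near peaks, and its part in the difference in length was not tested.

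**Figure D2:**
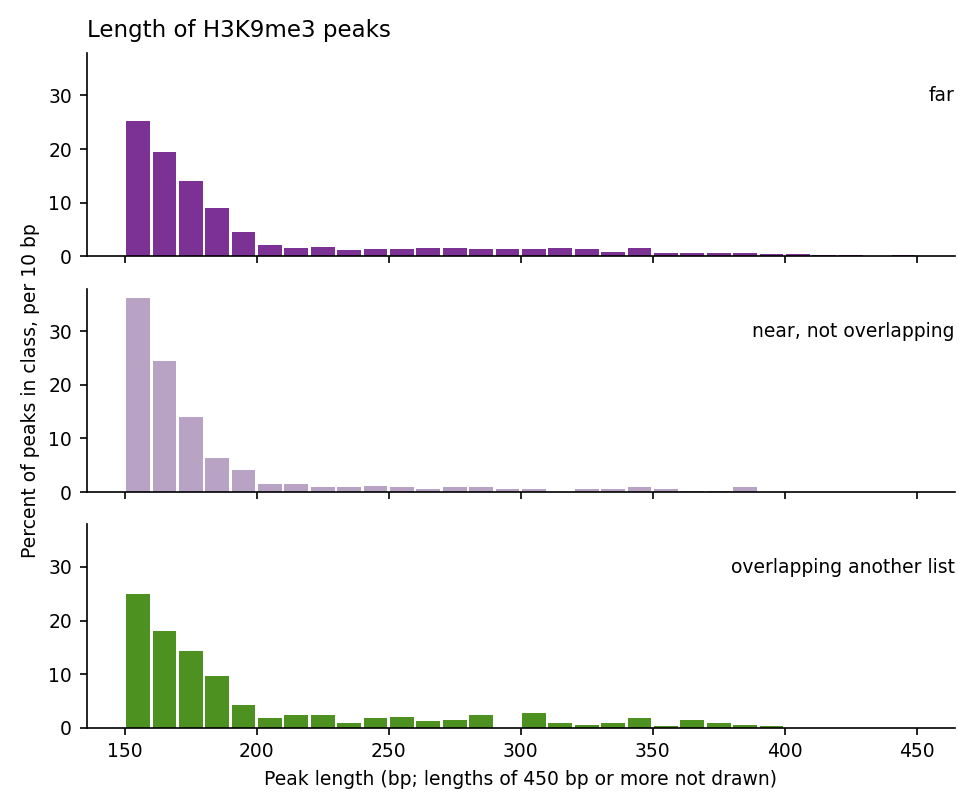
Length of H3K9me3 peaks in classes of 10 bp, as percent of the 1720 far, 335 near and 333 overlapping peaks (top to bottom, 1 library). Far peaks concentrate below 200 bp and then form a level stretch from 210 to 329 bp, with between 22 and 29 peaks per class.

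Longer far peaks had more fragments, while the fold did not move in a single direction with length. Far peaks of 151 to 160 bp had a median pileup of 12 fragments and a median fold of 5.45. Those of 171 to 200 bp had 14 fragments and 6.31, and those of 251 to 350 bp 19 fragments and 4.55. Far peaks of 351 to 500 bp had 20 fragments and 5.20, and the 17 longer ones 23 fragments and 4.44. The control background had medians of 1.14, 1.14, 3.58, 3.14 and 4.85 scaled fragments in these classes. The longest of these classes thus had the most fragments in ChIP and in control and the lowest fold, but the fold was highest at 171 to 200 bp. Across the 1719 far peaks with a solved pileup, Spearman's correlation of length was 0.28 with pileup, 0.29 with background and -0.13 with fold. These are correlations across peaks of 1 library, given as a description. Summits lay near the middle, at a median of 0.475 of the peak's length from its left end. In peaks over 350 bp they were more spread, with quartiles of 0.229 and 0.743 against 0.360 and 0.581 in the whole class.

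The 5 longest far peaks were chr12:18394121-18394868 (748 bp), chr2:123915694-123916416 (723 bp), chr1:188791426-188792099 (674 bp), chr10:28916686-28917331 (646 bp) and chr17:91487174-91487777 (604 bp). Their folds lay between 2.67 and 6.68, and their pileups between 20 and 29 fragments. The longest had the highest fold of the 5, and the nearest other H3K9me3 summit was 3106 bp away. In all, 17 far peaks (0.988%) reached 500 bp, on 12 chromosomes. No single peak of the class was kilobases long, since the longest was 748 bp. Peaks called with a fragment length of 150 bp cannot show whether broader domains were present, and this was not tested.

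The signal of a far peak was modest in the number of fragments. P scores (−log10 of the caller's p) had a median of 10.4 and folds a median of 5.67 (interval 5.54 to 5.77). Near peaks had a median P score of 8.997 and a fold of 5.60 (5.41 to 5.73), and overlapping peaks 10.3 and 5.48 (5.21 to 5.88). Of the far peaks, 895 (52.0%) had a P score of 10 or more and 65 (3.78%) a score of 20 or more. In the whole H3K9me3 list these shares were 49.7% and 3.77%. The pileup of far peaks had quartiles of 9 and 21 fragments, and 538 of them (31.3%) rested on 10 or fewer. That share was 35.1% in the whole list, 50.4% in near peaks and 39.0% in overlapping peaks. Many far peaks were indistinguishable from each other by signal. The 1720 peaks shared 555 distinct pairs of P score and fold, and the most common pair, a pileup of 5 over the lowest background, was met by 48 peaks on 18 chromosomes.

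The control background was above its lowest level at most far peaks, as in the other classes. The lowest background in the list was 0.179 scaled fragments, the level of fragments spread evenly over the genome, and 172 far peaks (10.0%) lay at it. So did 9.55% of near peaks, 5.41% of overlapping peaks and 9.30% of the whole H3K9me3 list. The median background of far peaks was 1.43, or 7.96 times the lowest. In near peaks it was 4.59 times and in overlapping peaks 6.37 times the lowest. With a dynamic background the caller takes the highest of several windows, which lifts these ratios in every class. Over the distance bands the median ratio was 3.60 at 10 to 25 kb from acetylation, 4.78 at 25 to 50 kb, 7.96 from 50 kb to 1000 kb and 9.55 beyond. Among the far peaks, pileup and background rose together, with a Spearman's correlation of 0.89 across 1719 peaks, a description only, since the threshold for a peak ties one to the other. Of the far backgrounds, 1357 (78.9%) were whole multiples of 0.285 within a tolerance of 0.001 multiples.

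**Figure D3:**
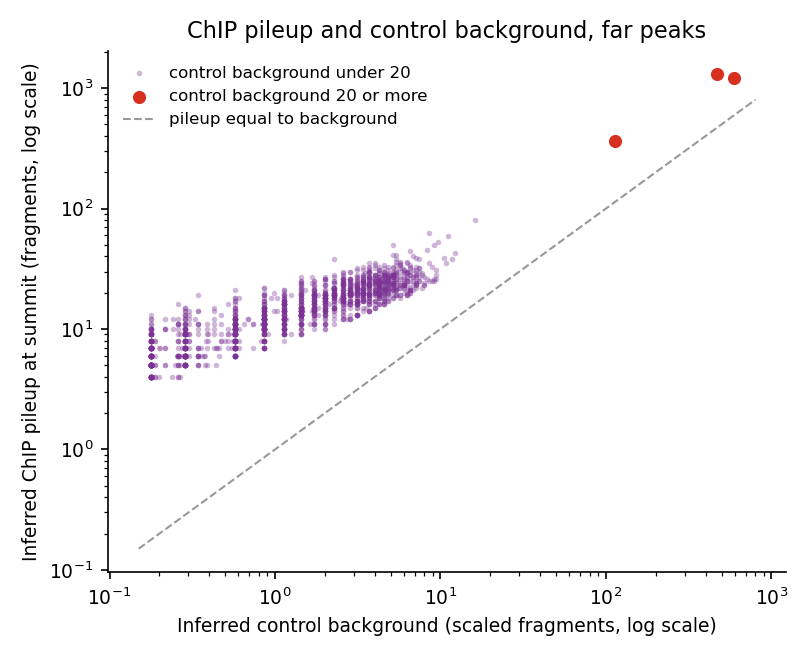
Inferred ChIP pileup at the summit against inferred control background for the 1719 far peaks with a solved pileup, both in fragments on log scales; each point is a peak and the dashed line marks equality. Points rise together from the lowest background of 0.179, and 3 peaks with backgrounds of 114 or more stand apart at the upper right.

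The far peaks of highest P score fell into different kinds. The first 3 had high control background. They were chr2:98505205-98505359, with a pileup of 1296 over a background of 468 and a fold of 2.76, chr2:98506723-98507049, with 1200 over 593 and a fold of 2.02, and chr17:39983537-39983688, with 365 over 114 and a fold of 3.18. These were the only far peaks with a background of 20 or more. The chromosome 2 pair lay 425.7 and 427 kb from a floxed acetylation summit, but 2.06 and 0.551 kb from both an Lck-Cre acetylation summit and a B6 ZFAT summit called against input. The chromosome 17 peak lay 0.617 kb from a floxed ZFAT summit and 0.581 kb from a B6 one. These 3 met the rule while bordering peaks of other lists at regions where the control was high too.

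The next 5 by P score had backgrounds between 0.345 and 16.3. The first was chr13:79941518-79941683, with a fold of 11.9 and a pileup of 38 fragments (interval 26.9 to 52.2). It was 1081 kb from acetylation and 762 kb from the nearest other H3K9me3 peak (761973 bp). The others were chr4:146649346-146649582 (fold 6.70), chr14:43800711-43800981 (fold 8.31), chr12:20239073-20239243 (fold 4.69) and chr5:70732133-70732322 (fold 14.9). The peak on chromosome 12 had the highest remaining background, 16.3, and a B6 ZFAT summit 0.825 kb away. The one on chromosome 5 had the highest fold of the class, with a pileup of 19 (11.4 to 29.7) over 0.345. After it by fold came chr5:27856557-27856763 (14.0), chr11:73182690-73182868 (13.5), chr1:24894247-24894440 (12.4) and chr16:57755330-57755510 (12.4). These 5 had pileups between 15 and 21 fragments over backgrounds of at most 0.571, and lengths between 179 and 207 bp. Their nearest H3K9me3 neighbours were more than 200 kb away.

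Most far peaks stood alone, with a minority in tight groups. The distance to the nearest other far peak had a median of 352 kb and quartiles of 103 and 848 kb. Spacing had a main mode between 100 kb and 1 Mb, with 930 peaks (54.1%), and a second, small mode at short range. Within 1 kb of another far peak lay 53 peaks (3.08%), and 29 more lay between 1 and 2 kb. Only 14 had their neighbour at 2 to 5 kb, and 34 at 5 to 10 kb. When far peaks with summits within 10 kb were joined, 130 of them (7.56%, 6.35% to 8.91%) fell into 60 runs, made of 51 pairs, 8 triples and 1 run of 4. Near peaks joined among themselves gave 5.07% (2.98% to 8.00%) in runs and overlapping peaks 2.70% (1.24% to 5.07%), but these smaller classes are sparser along the genome, which lowers the share. With any H3K9me3 peak as the neighbour, the share within 10 kb was 8.49% (7.21% to 9.91%) of far peaks, 8.66% (5.87% to 12.2%) of near peaks and 9.91% (6.92% to 13.6%) of overlapping peaks, and these intervals overlapped.

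**Figure D4:**
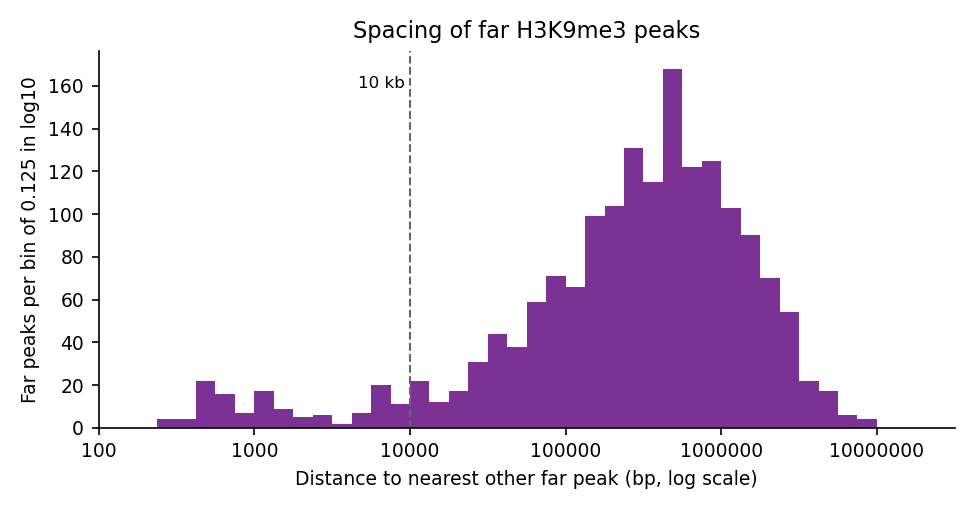
Distance from each far peak to the nearest other far peak, on a log axis, as the number of peaks in classes of equal width in log10; the dashed line marks 10 kb, the distance that joins peaks into runs. Most peaks lie between 100 kb and 1 Mb from the next, and a small separate group, 53 peaks, lies within 1 kb.

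Runs were short. The 70 gaps within runs had a median of 1271 bp and quartiles of 678 and 5643 bp, and 12 were under 500 bp. A run spanned a median of 1536 bp between its outer summits, from 308 to 11722 bp. Members of runs had a median pileup of 21 fragments and a median background of 3.51, against 14 and 1.43 in the 1590 single far peaks, and their median fold was 5.10 against 5.73. Their median length was 184.5 bp against 172 bp. Grouped far peaks were thus taller in ChIP fragments and in control fragments, without a higher fold.

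The run with most members was on chromosome 12, with 4 peaks between chr12:28024354 and 28028144. Its summits were 1925, 481 and 1042 bp apart, and its folds from left to right were 8.05, 3.93, 4.62 and 4.11. The pileups of these were 30, 22, 26 and 16 fragments over backgrounds between 2.85 and 4.85. The 4 shortest runs of 3 followed. They lay at chr12:68321999-68323712, with gaps of 466 and 813 bp, chr2:143371484-143373803, with gaps of 455 and 1701 bp, chr12:21834289-21840329, with gaps of 254 and 5613 bp, and chr18:20777955-20784663, with gaps of 5980 and 491 bp. Folds in these 4 runs lay between 3.43 and 8.11. Each of the 5 runs had at least 1 gap under 500 bp. In each the members lay from 270 to 1938 kb from acetylation. Of the 60 runs, 9 were on chromosome 12 (22 peaks), 6 on chromosome 18 (14 peaks) and 5 on chromosome 2 (11 peaks). Chromosomes 15 and 19 had none.

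Stretches between acetylation summits were also uneven in how many far peaks they held. The chromosome spans held 3663 stretches long enough to contain a far peak, and 807 (22.0%) contained at least 1. Single far peaks occupied 437 of these, while 370 held 2 or more, with 1283 far peaks (74.6%) between them. Stretches that held a far peak had a median length of 1154 kb, and the 2856 empty ones 196 kb. The length of a stretch sets its room for far peaks. This difference, and the share of far peaks in stretches with 2 or more, are therefore largely built in. Per Mb of territory more than 50 kb from acetylation, stretches of up to 500 kb held 0.715 far peaks (0.622 to 0.819) and those of 500 to 1000 kb held 1.07 (0.952 to 1.20). Stretches of 1 to 2 Mb held 0.894 (0.809 to 0.986), those of 2 to 5 Mb 0.941 (0.867 to 1.02) and those over 5 Mb 0.712 (0.621 to 0.813). Of the 42 stretches over 5 Mb, 2 held no far peak, the longer of 7766 kb at chr7:39006716-46773201.

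The following 4 stretches were chosen after their counts were seen. The one with most far peaks was on chromosome 12 (chr12:18617049-20926970), with 19 peaks in 2.31 Mb, or 8.60 per Mb of far territory (5.18 to 13.4). The densest of the 4 was on chromosome 18 (chr18:36894872-37803705), with 12 peaks in 909 kb, or 14.8 per Mb (7.67 to 25.9). The chromosome 15 stretch (chr15:12754879-25343361) held 16 peaks in 12.6 Mb, at 1.28 per Mb, and the long chromosome X stretch 14 peaks, at 0.663 per Mb. The dense pair carried more control signal, with median backgrounds of 3.42 on chromosome 12 and 4.42 on chromosome 18, against 1.14 on chromosome 15 and 0.272 on chromosome X. The median folds of the 4 were 4.69, 4.02, 5.77 and 5.94 in the order chromosome 12, 18, 15 and X. Within the chromosome 18 stretch, 9 far peaks followed each other at gaps between 4.41 and 43.4 kb over 152 kb (chr18:37582940-37735712). Their folds ran from 2.80 to 6.27 and their pileups from 6 to 28 fragments. They were the longest chain of far peaks at a joining distance of 50 kb.

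By fixed windows of 5 Mb, far peaks were present in 485 of 539 windows, with a mean of 3.19 and a variance of 6.94 peaks per window. In 14 windows there were 10 or more, with 172 far peaks (10.0%). The fullest were chromosome 12 from 15 to 20 Mb with 22 far peaks, chromosome 4 from 150 to 155 Mb with 18, and chromosome 12 from 20 to 25 Mb with 15. None of these 3 windows held a far peak with a control background of 20 or more. The chromosome 12 windows had 16 and 9 floxed acetylation peaks, and the chromosome 4 window 53.

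Far peaks occurred on all 19 autosomes and on chromosome X. Chromosome 4 held most, 147 (8.55% of the class, 7.27% to 9.97%), followed by chromosome 1 with 138 and chromosome 2 with 121. Chromosomes 19, 16 and X held the fewest, with 26, 38 and 57. Larger chromosomes had more, with a Pearson correlation of 0.79 and a Spearman correlation of 0.71 between span and count over the 20 chromosomes, given as a description. The far share of a chromosome's H3K9me3 peaks ran from 50.4% (41.1% to 59.7%) on chromosome 11 to 87.7% (77.2% to 94.5%) on chromosome X. This share fell with the density of acetylation peaks, which was highest on chromosome 11 at 10.5 per Mb and lowest on chromosome X at 1.45 per Mb, and the correlation across chromosomes was -0.85 by Pearson and by Spearman. The rule builds this relation in, since each acetylation peak removes territory and the H3K9me3 peaks that overlap it.

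Scaled to the territory that the distance threshold allowed, the chromosomes stood in another order. Density per Mb of far territory had a Spearman correlation of only 0.22 with acetylation density. It was highest on chromosome 4, at 1.32 far peaks per Mb (1.12 to 1.55), and on chromosome 12, at 1.16 (0.954 to 1.41), against 0.879 over all chromosomes. It was lowest on chromosome X, at 0.385 (0.292 to 0.499), and on chromosome 16, at 0.519 (0.367 to 0.712). The intervals of chromosomes 4, 12, 16 and X did not reach the value over all chromosomes. They cover counting error in 1 library and no spread between animals. They also take peaks as independent, which is too narrow for grouped peaks.

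**Figure D5:**
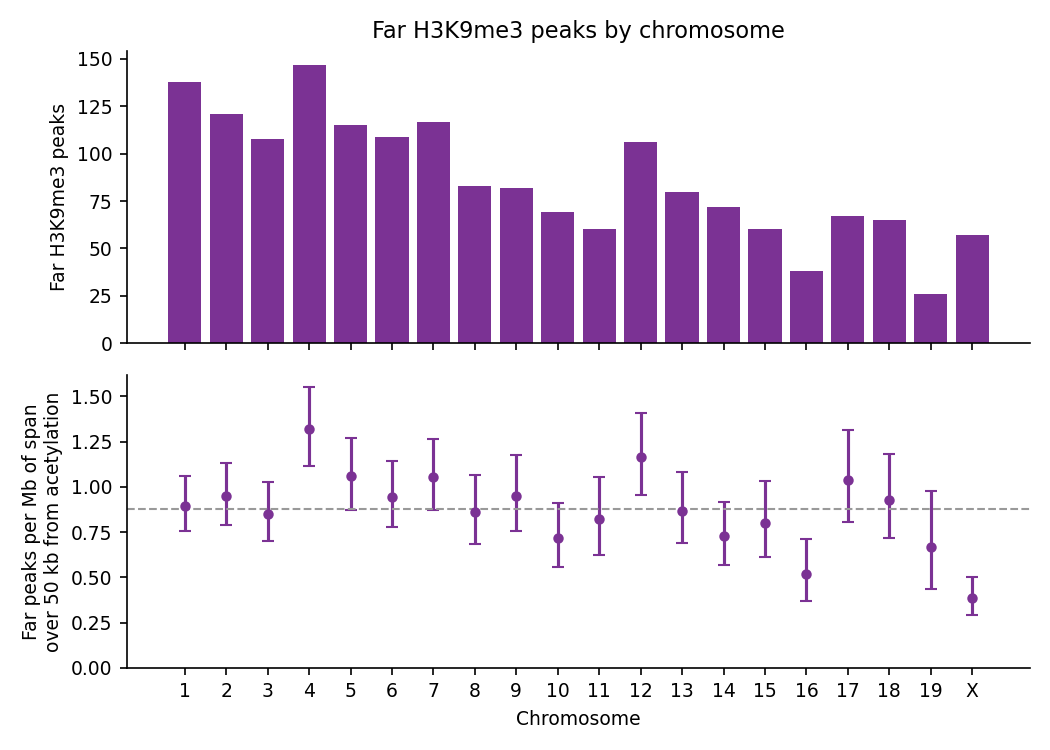
Far peaks by chromosome, as counts (upper panel, bars) and per Mb of span more than 50 kb from floxed acetylation (lower panel, points with exact Poisson 95% intervals, 1 library); the dashed line is 0.879, the value over all chromosomes. Chromosome 4 has the highest count and density (147 peaks, 1.32 per Mb) and chromosome X the lowest density (0.385 per Mb).

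Chromosome X stood apart in signal as well as in density. Its 57 far peaks had a median pileup of 9 fragments (8 to 11) and a median control background of 0.571 (0.285 to 0.856), against 15 fragments (15 to 16) and 1.46 (1.43 to 1.71) for the 1663 autosomal far peaks. The median fold was 5.77 (5.09 to 6.22) on chromosome X and 5.65 (5.53 to 5.77) on autosomes. The fold adds a constant to pileup and to background, so at backgrounds this low it is not the plain ratio of ChIP to control. Near peaks were also rarer there, with 2 on chromosome X (0.133 per Mb of near territory, 0.0161 to 0.481) against 0.556 per Mb (0.498 to 0.619) on autosomes. The labels do not give the sex of the mice, and the part of the number of X copies in these values was not tested.

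Chromosome 12 combined a high density with grouping and length. Of its 106 far peaks, 22 (20.8%) were in runs and 13 (12.3%) were longer than 350 bp, against 7.56% and 5.52% of the whole class. Part of this was local. The windows from 15 to 20 Mb and from 20 to 25 Mb held 22 and 15 of the 106. Of the peaks in runs, 8 lay in the stretch chr12:18617049-20926970. The median background of the chromosome was 2.12, the highest of the 20 chromosomes, and its median fold was 5.74. On chromosome 18, 14 of 65 far peaks (21.5%) were in runs, while 2 were longer than 350 bp. The shares over 350 bp next below that of chromosome 12 were 9.72% on chromosome 14 (7 of 72) and 9.40% on chromosome 7 (11 of 117). Chromosome 6 had 9.17% (10 of 109) and chromosome 2 had 8.26% (10 of 121). Chromosomes 13, 16 and 19 had no far peak over 350 bp among 80, 38 and 26. Median length varied little, from 167 bp on chromosomes 8 and 15 to 178.5 bp on chromosome 12.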

How the data were processed

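Chromatin of formaldehyde-fixed thymocytes (1%, 10 min) was cut with micrococcal nuclease (375 units, 0.5 h) and then sonicated, per the labels' protocols. Peaks in mm9 were called by the authors per library. The name of each deposited list gives MACS as the caller, and the submitters' processing notes name Trimmomatic 0.22, SAMtools 0.1.18 and CASAVA 1.8.1. Neither the aligner nor the control of the H3K9me3 list is given in the sources used here. The headers of the files state a fragment length of 150 bp, an effective genome of 1870000000 bp, a p threshold of 1e-05 and a dynamic background. In the deposited lists, P score and Q score hold −log10 of p and of adjusted p (the Q score was not used). The fold is the authors' value, taken here as pileup plus 1 over local background plus 1. It is therefore not the plain ratio of pileup to background, and lies well below that ratio where the background is low.

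Overlap meant at least 1 shared bp. Summit distances, runs and territory were computed with Python 3.11.15, numpy 2.4.6, pandas 2.3.3 and SciPy 1.17.1, and checked against brute force on simulated data. Pileup and background were inferred as the whole number of fragments that meets both fold and P score within 0.0001; 2384 of the 2388 H3K9me3 peaks had 1 solution, 3 had none because the P score was at its ceiling and 1 had 2. The lowest background implied about 2234180 H3K9me3 fragments and 2190830 floxed H3K9ac/K27ac fragments. Intervals are 95%, cover counting error only and take peaks as independent.

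With 1 library per group no test was made. The members, the rules and the lists were chosen with earlier results of these data known. Named regions are the 8 highest P scores, the 5 longest, the 5 highest folds, the 5 most remote peaks, the 5 largest runs, the 3 chromosomes with most and with fewest far peaks, and the 3 peaks on each side of the threshold. Sequences and gene positions of mm9 were not used here.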

Additional observations from a re-analysis of the deposited data

How the results depend on the processing

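Moving the distance to 10, 25, 100 or 200 kb changed the count of far peaks to 1969, 1851, 1531 and 1252, and left median length, the share in runs and the shares on chromosome X and on the fullest chromosome within the intervals of the values reported, although at 200 kb chromosome 1 held most far peaks (102). Adding Lck-Cre acetylation gave 1686 far peaks, taking only acetylation peaks that scored at least 10 gave 1751, and an overlap of at least 50% of the H3K9me3 peak gave 1734. Restricting H3K9me3 to P scores of at least 10 left 895 far peaks, with a median fold of 6.78, 5.36% in runs and 2.35% on chromosome X. That fold lay above, and both shares below, the intervals of the values reported. Fewer peaks are also sparser along the genome, which lowers the share in runs. The share in runs followed the joining distance, at 5.58% for 5 kb, 16.4% for 50 kb and 24.7% for 100 kb. Leaving out the 3 peaks of high control background left median length and median fold at 173 bp and 5.67, and put 7.45% in runs. All far peaks were on standard chromosomes, so that restriction removed none. Gene content and cell type markers were not run, since gene positions of mm9 were not used here. No paired analysis was possible because each ChIP group had 1 library. Pileups of 10 or fewer fragments made up 31.3% of far peaks and 35.1% of the whole H3K9me3 list, so many peaks of either rest on few fragments. How the depth of the acetylation library bears on the count of far peaks was not tested.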
